A study of Homo sapiens with 30 samples.

Results

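The activating transcription factor 4 (ATF4) stress regulators are 10 of the 57992 genes in the deposited table. They are ATF4 itself, the transcription factors ATF3, ATF5, CEBPB and DDIT3, and the effectors CHAC1, TRIB3, DDIT4, SESN2 and VLDLR. They were taken by gene symbol from a given list, and all 10 were found. The rule uses no measured value, but the list was chosen with earlier results of these data known. Counts of its members against all genes are therefore a description. ATF4 is a basic leucine zipper (bZIP) transcription factor whose protein is made mainly when the initiation factor eIF2 is phosphorylated by kinases that sense amino acid shortage, endoplasmic reticulum (ER) stress, heme shortage or double-stranded RNA. It then turns on genes for amino acid uptake and synthesis, for redox balance and, when stress lasts, for cell death, often from composite DNA elements that it binds together with C/EBP proteins. Because ATF4 is controlled largely at translation, the level of its mRNA does not stand for the level of its protein, which was not measured in these libraries.

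RNA-Seq was carried out on total RNA depleted of rRNA from 2 human cell lines, with 3 replicates in each of 10 groups and 30 libraries in all. HCT116, a colon carcinoma line labelled as having stabilized MYC, was untreated or received 2 or 10 μM Omomyc for 6 or 24 h. Ramos, a Burkitt's lymphoma line that carries a MYC translocation, was untreated or received 0.5 or 2.5 μM Omomyc for 6 or 24 h. Omomyc is a dominant-negative inhibitor of MYC that competes with it for its partner Max and for E boxes, the DNA sites of MYC/Max dimers. In the study's methods, HCT116 cells got Omomyc together with ProteoJuice, a protein transfection reagent, mixed in Opti-MEM medium. Whether the untreated HCT116 cells also got ProteoJuice, and how Ramos cells were treated, was not given in the sources used here. The untreated groups carry no time in the labels, so the same 3 untreated libraries of a line served its 4 Omomyc groups, and Omomyc, the reagent and the medium change cannot be told apart in HCT116 cells. The labels do not say whether replicates were separate cultures, so the p-values measure the spread between these libraries, which may be technical.

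Values are RPKM, reads scaled to the length of the gene and to the reads of the library, which allow levels of different genes to be compared per length. Gene positions are those of GENCODE release 29 (GRCh38), matched by gene identifier, and cover the whole gene. Summed RPKM ranged from 593633 to 1051041 over the HCT116 libraries and from 783788 to 973736 over the Ramos libraries, with 13483 to 15340 genes at 0.5 RPKM or more. The read depth behind them is unknown, and 3 libraries per group limit the precision. The 8 epithelial markers summed to between 1417 and 2234 RPKM in HCT116 libraries and to at most 1.79 in Ramos libraries, although VIL1 and LGALS4, which mark the mature gut lining, stayed at or below 0.193 RPKM in HCT116 cells. The 8 B cell markers summed to between 1568 and 1721 RPKM in Ramos libraries and to at most 3.12 in HCT116 libraries. In the third replicate of HCT116 cells with 10 μM Omomyc for 6 h, a single noncoding RNA gene, RN7SL1, took 19.7% of the summed RPKM. The third replicate of HCT116 cells with 2 μM Omomyc for 6 h stood apart for several of the stress regulators, and values without it are given for CHAC1, DDIT4, CEBPB and SESN2.

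Promoter sequences from RefSeq (GRCh38.p14) were searched on both strands in windows of 300 bases, from 250 bases before to 50 after each start site, for the core of the C/EBP-ATF composite element (TGATGNAAN), the cAMP response element (TGACGTCA), the MYC/Max E box (CACGTG) and the ER stress response element. All 10 genes had a window, 18 in all. The composite core was found in 2 of these 18 windows, in CHAC1 and ATF3, against 3.61% of all 35116 promoter windows. The other ATF3 window, chr1:212614768-212615067, held no match. The E box was found in ATF4 alone, in both of its overlapping windows, against 7.26% of all windows. The other motifs, held by 1.85% (cAMP response element) and 0.0769% (ER stress response element) of all windows, were in no window of the 10 genes. The 3 sequences below are the 250 bases before the start site in the genes with a match, on the plus strand. Whether a match goes with the change of a gene was not tested. Capitals mark the match, which in CHAC1 reads TGATGCAAC on the opposite strand. A match of letters is a description and not a binding site.
CHAC1, chr15:40953221-40953470: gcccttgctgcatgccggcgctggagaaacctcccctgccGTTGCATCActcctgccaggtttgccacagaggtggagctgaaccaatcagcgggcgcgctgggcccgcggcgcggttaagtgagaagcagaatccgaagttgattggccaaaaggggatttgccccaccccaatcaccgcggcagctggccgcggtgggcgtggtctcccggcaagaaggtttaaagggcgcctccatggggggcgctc
ATF3, chr1:212565157-212565406: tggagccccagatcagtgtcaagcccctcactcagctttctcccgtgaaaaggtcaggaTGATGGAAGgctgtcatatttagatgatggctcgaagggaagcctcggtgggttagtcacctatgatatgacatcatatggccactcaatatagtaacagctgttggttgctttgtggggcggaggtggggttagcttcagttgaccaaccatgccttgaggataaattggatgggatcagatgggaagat
ATF4, chr22:39520309-39520558: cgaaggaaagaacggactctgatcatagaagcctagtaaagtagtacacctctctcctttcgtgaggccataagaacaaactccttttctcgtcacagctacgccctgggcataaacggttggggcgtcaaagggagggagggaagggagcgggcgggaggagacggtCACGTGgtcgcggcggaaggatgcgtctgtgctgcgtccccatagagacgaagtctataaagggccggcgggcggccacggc
Counted from the start site, the match lies at -210 to -202 in CHAC1, at -191 to -183 in ATF3 and at -82 to -77 in ATF4.

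In HCT116 cells the set moved together in most of its members and split in 2 of them. With 10 μM Omomyc, all 9 genes that could be tested changed at 6 h (2 rose, 7 fell). There 30.0% of the 14785 genes tested changed (8.84% rose, 21.2% fell). At 24 h all 9 changed (1 rose, 8 fell), where 35.2% of 14827 genes changed (19.5% rose, 15.7% fell). With 2 μM Omomyc, 8 of 9 changed at 6 h (2 rose, 6 fell), where 47.3% of 14550 genes changed (15.5% rose, 31.8% fell). At 24 h 6 of 9 fell, where 27.3% of 14886 genes changed (16.6% rose, 10.8% fell). CHAC1, DDIT4, SESN2, TRIB3, CEBPB and ATF4 fell in all 4 Omomyc groups of HCT116 cells, while ATF3 and ATF5 rose at 6 h. In Ramos cells 6 of 10 genes fell with 2.5 μM Omomyc at 6 h, where 27.9% of 13595 genes changed (10.7% fell). With 0.5 μM at 6 h 2 of 10 fell, where 23.6% of 13614 genes changed (9.73% fell). With 2.5 μM at 24 h 1 fell, where 4.61% of 13607 genes changed (3.30% rose, 1.31% fell). With 0.5 μM at 24 h 0 changed, where 0.0146% of 13674 genes did. In that last comparison limma gave 2 of the 10 genes, and 763 of all genes, an unadjusted p under 0.05, and no other tool was run. A change is a limma adjusted p under 0.05 on log2(RPKM + 0.5), a scale that understates the change of low genes, and the 4 comparisons of a line share their untreated libraries.

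**Figure D1:**
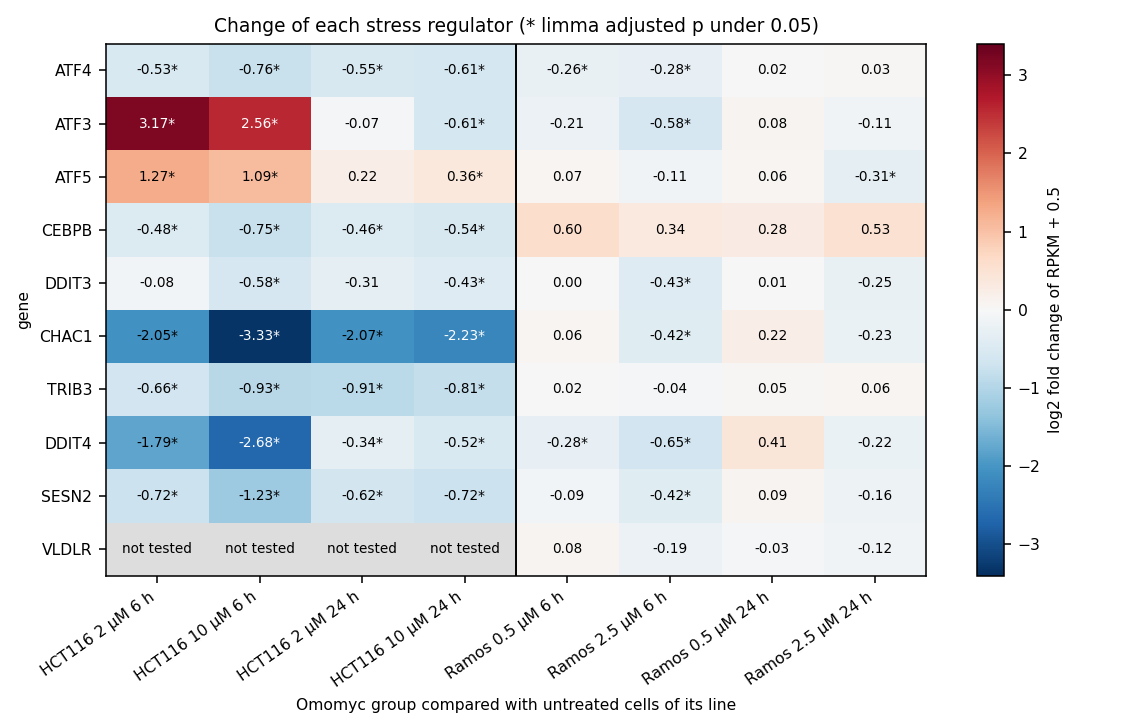
Log2 fold change of RPKM + 0.5 for the 10 genes (rows) in each Omomyc group against untreated cells of the same line (columns, HCT116 left and Ramos right of the line). Red is higher and blue lower than untreated, an asterisk marks a limma adjusted p under 0.05, and gray cells were not tested. The extremes are 3.17 for ATF3 and -3.33 for CHAC1, both in HCT116 cells at 6 h.

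Across all genes tested, the median log2 fold change in HCT116 cells at 6 h was -0.12 with 2 μM and -0.11 with 10 μM Omomyc. Rescaling each library to an equal sum moved these medians to -0.42 and -0.56, and median-ratio scaling moved them to 0.00 and 0.02. With equal sums the share of rises among all called genes fell from 32.7% to 6.85% (2 μM) and from 29.4% to 4.37% (10 μM). In Ramos cells equal sums moved the median from 0.03 to 0.16 (2.5 μM at 6 h) and from 0.05 to 0.24 (2.5 μM at 24 h), where 39.4% of all genes were then called. The changes of CHAC1, DDIT4 and ATF3 at 6 h are several times these shifts, and every called change against untreated cells kept its direction under each scaling tried. With equal sums the 6 h values of ATF4, CEBPB and TRIB3 deepened to -0.87, -0.80 and -0.99 with 2 μM, and those of ATF4, CEBPB, TRIB3 and DDIT3 to -1.25, -1.22, -1.41 and -1.06 with 10 μM. The median over the 9 stress regulators was -0.53 with 2 μM and -0.76 with 10 μM at 6 h, and -0.46 and -0.61 at 24 h, where the median of all genes was 0.04 and 0.02.

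ATF4 (ENSG00000128272, chr22:39519695-39522685, plus strand), the hub of the set, was the most abundant of the 10 mRNAs in every group. It measured 287, 308 and 333 RPKM in untreated HCT116 cells, 192, 231 and 221 after 6 h with 2 μM Omomyc, and 171, 187 and 188 after 6 h with 10 μM. It measured 204, 223 and 205 RPKM after 24 h with 2 μM and 209.8, 207 and 192 after 24 h with 10 μM. All 12 treated HCT116 libraries lay below the 3 untreated ones, with the 10 μM group at 6 h the lowest and the other treated groups overlapping. The log2 fold change lay between -0.53 ± 0.09 (SE, 2 μM at 6 h, adjusted p = 0.0011) and -0.76 ± 0.11 (10 μM at 6 h, adjusted p = 0.0029). At 24 h it was -0.55 ± 0.06 (2 μM, adjusted p = 0.00073) and -0.61 ± 0.07 (10 μM, adjusted p = 0.00018). In Ramos cells ATF4 measured 251, 254 and 265 RPKM untreated, 215, 212 and 216 after 6 h with 0.5 μM, and 209, 217 and 205 after 6 h with 2.5 μM. The 24 h values were 256, 257 and 266 RPKM with 0.5 μM and 259, 267 and 260.1 with 2.5 μM. Both 6 h groups lay below the untreated libraries, and both 24 h groups overlapped them. ATF4 fell by 0.26 ± 0.04 (0.5 μM, adjusted p = 0.0029) and by 0.28 ± 0.04 (2.5 μM, adjusted p = 0.0014) on the log2 scale at 6 h. These Ramos calls were lost when each library was rescaled to an equal sum of RPKM (-0.16 and -0.14).

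ATF3 (ENSG00000162772, chr1:212565334-212620777, plus strand), an immediate stress-induced bZIP factor that ATF4 is known to turn on, showed the largest rise. In HCT116 cells it measured 7.61, 7.73 and 7.81 RPKM untreated, 73.3, 69.0 and 78.0 after 6 h with 2 μM Omomyc, and 45.4, 48.3 and 50.5 after 6 h with 10 μM. The mean at 6 h was thus 9.52 times the untreated mean with 2 μM and 6.23 times with 10 μM, with no overlap between groups. The log2 fold changes were 3.17 ± 0.07 (adjusted p = 2.8e-08) and 2.56 ± 0.09 (adjusted p = 4.3e-05). At 24 h it measured 6.77, 6.78 and 8.62 RPKM with 2 μM, around the untreated level (adjusted p = 0.64), and 4.45, 5.04 and 5.21 with 10 μM, below it (log2 fold change -0.61 ± 0.08, adjusted p = 0.0006). So at 10 μM the same gene was above untreated cells at 6 h and below them at 24 h. From 6 to 24 h it fell by 3.24 ± 0.10 (2 μM, adjusted p = 5.5e-07) and by 3.17 ± 0.11 (10 μM, adjusted p = 9.2e-06) on the log2 scale. In Ramos cells ATF3 was low throughout, between 1.03 and 2.74 RPKM over the 15 libraries. It measured 1.66, 2.74 and 1.78 RPKM untreated and 1.32, 1.03 and 1.21 after 6 h with 2.5 μM, a log2 fold change of -0.58 ± 0.18 (adjusted p = 0.045). This call is fragile: it was lost without any of the 3 treated libraries or without untreated replicate 2 or 3 (-0.65 to -0.40).

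ATF5 (ENSG00000169136, chr19:49928702-49933935, plus strand), a related factor known for the mitochondrial unfolded protein response and likewise made when eIF2 is phosphorylated, was the other gene that rose. In HCT116 cells it measured 2.88, 3.41 and 3.56 RPKM untreated, 7.83, 9.33 and 8.63 after 6 h with 2 μM, and 8.93, 8.25 and 5.75 after 6 h with 10 μM. The 6 h groups did not overlap the untreated group. The log2 fold changes were 1.27 ± 0.11 (adjusted p = 5.1e-05) and 1.09 ± 0.18 (adjusted p = 0.0047). With equal sums of RPKM the latter was 0.65 and its call was lost (adjusted p = 0.062). The 24 h values were 3.85, 4.37 and 3.496 RPKM with 2 μM and 4.18, 3.81 and 5.10 with 10 μM, lower than at 6 h in every library. The 10 μM call at 24 h (0.36 ± 0.12, adjusted p = 0.048) was lost without treated replicate 1 or 3 or any untreated replicate (0.25 to 0.41). In Ramos cells ATF5 was higher at the outset, with 14.3, 12.7 and 12.7 RPKM untreated, and measured 10.8, 10.3 and 10.5 after 24 h with 2.5 μM. This drop, -0.31 ± 0.07 on the log2 scale (adjusted p = 0.044), was lost without any of the 3 treated libraries or without untreated replicate 1 or 2 (-0.34 to -0.25). The other Ramos groups lay between 11.8 and 15.5 RPKM and did not pass the test. ATF5 overlaps NUP62 and IL4I1 on the opposite strand, and the strand setting of the counting was not given in the sources used here. NUP62, a nuclear pore gene, measured 32.003 to 51.8 RPKM in HCT116 cells and 58.3 to 68.1 in Ramos cells, more than ATF5 itself, and its part in the ATF5 values was not tested.

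CEBPB (ENSG00000172216, chr20:50190734-50192689, plus strand) encodes a bZIP partner with which ATF4 binds composite elements. Its HCT116 values were 13.3, 15.1 and 14.3 RPKM untreated, 7.69, 11.0 and 12.2 after 6 h with 2 μM, and 8.78, 8.52 and 7.48 after 6 h with 10 μM. It measured 11.4, 9.67 and 9.66 RPKM after 24 h with 2 μM and 8.41, 10.4 and 10.1 after 24 h with 10 μM. Every treated HCT116 library was below every untreated one. The largest fall was -0.75 ± 0.11 on the log2 scale (10 μM at 6 h, adjusted p = 0.0032), and the smallest was -0.46 ± 0.08 (2 μM at 24 h, adjusted p = 0.0047). The 2 μM change at 6 h (-0.48 ± 0.15, adjusted p = 0.023) was lost without untreated replicate 2 or 3 (-0.44 and -0.47). It was -0.29 ± 0.09 without treated replicate 1 and -0.60 ± 0.14 without treated replicate 3 (adjusted p = 0.029 and 0.0103). In Ramos cells the spread was wide, with 8.02, 4.84 and 4.26 RPKM untreated and 5.24 to 10.7 in the treated libraries, and no Omomyc group passed the test (adjusted p between 0.074 and 0.87).

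DDIT3 (ENSG00000175197, chr12:57516588-57521737, minus strand) encodes CHOP, a bZIP factor that promotes cell death under lasting ER stress. Among HCT116 libraries it measured 17.1, 17.3 and 19.5 RPKM untreated, 15.9, 16.8 and 17.96 after 6 h with 2 μM, and 10.8, 11.6 and 13.3 after 6 h with 10 μM. At 24 h it measured 13.3, 12.6 and 17.3 RPKM with 2 μM and 12.6, 13.5 and 13.4 with 10 μM. Both 10 μM groups lay below the untreated libraries, and both 2 μM groups overlapped them. With 10 μM DDIT3 fell by 0.58 ± 0.12 at 6 h (adjusted p = 0.01) and by 0.43 ± 0.07 at 24 h (adjusted p = 0.0014) on the log2 scale. The 6 h call was lost without untreated replicate 3 (-0.52). In Ramos cells DDIT3 measured 20.7, 19.0 and 21.1 RPKM untreated and 14.7, 16.4 and 13.9 after 6 h with 2.5 μM, a lower level. That change, -0.43 ± 0.07 (adjusted p = 0.0037), put every library with 2.5 μM below every untreated one. At 0.5 μM the values were 19.0, 19.7 and 22.3 RPKM at 6 h and 19.8, 20.9 and 20.7 at 24 h, inside or next to the untreated range. After 24 h with 2.5 μM the mean was 16.97 RPKM, and every library lay below every untreated one. That log2 fold change, -0.25, did not pass the test and was -0.05 with equal sums of RPKM. DDIT3 overlaps MARS and MBD6 on the opposite strand. MARS, a tRNA ligase gene and itself a known ATF4 target, measured 45.9 to 109 RPKM in HCT116 cells, several times the level of DDIT3, and its part in the DDIT3 values was not tested.

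**Figure D2:**
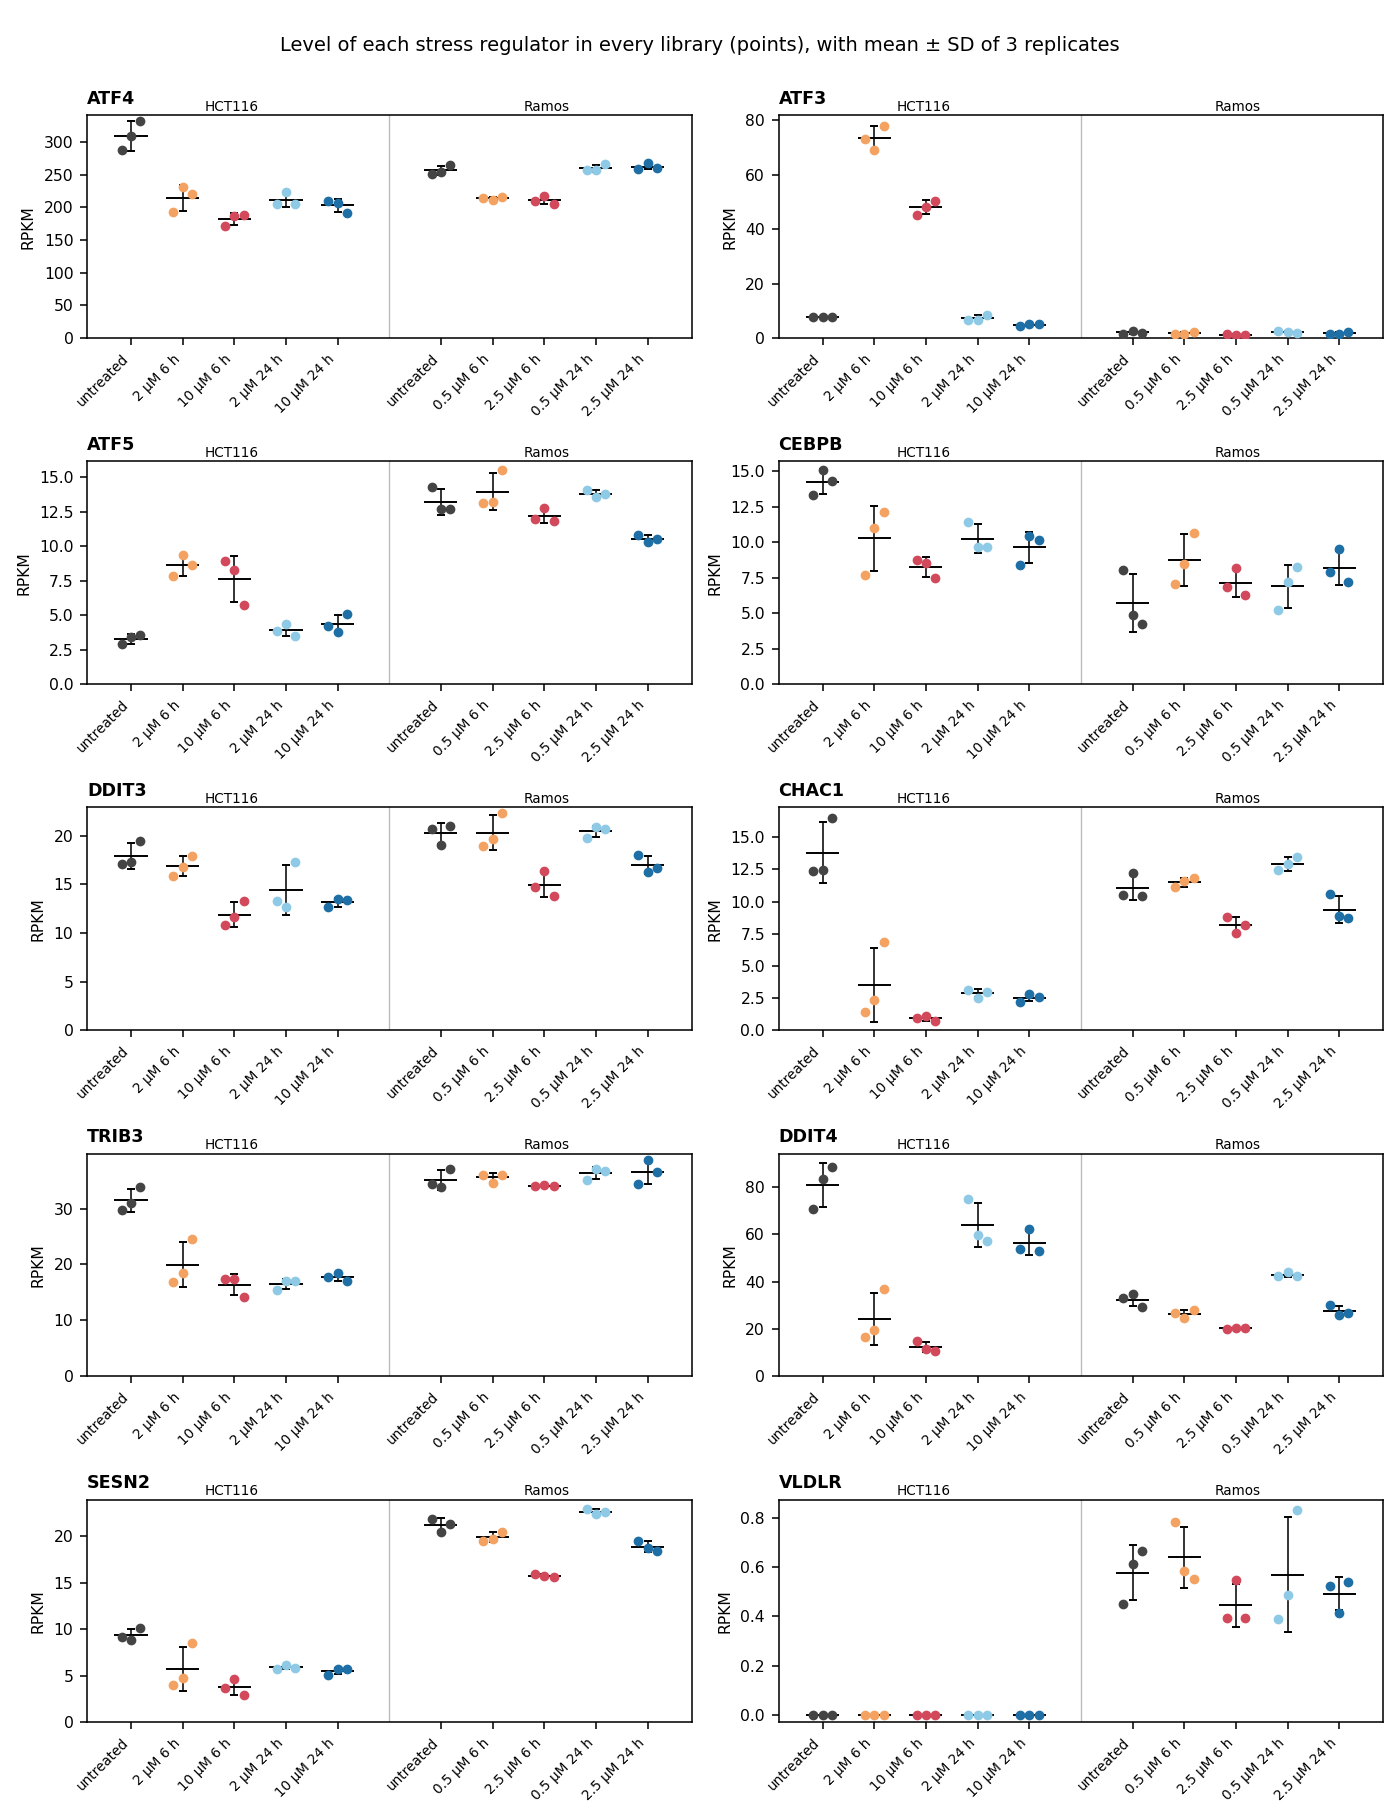
RPKM of each of the 10 genes in every library, in HCT116 groups (left of each panel) and Ramos groups (right). Points are the 3 replicates in order, bars the group mean and whiskers the SD, and each panel has its own linear axis. CHAC1 and DDIT4 drop in HCT116 cells at 6 h, ATF3 and ATF5 peak there, and VLDLR is listed at 0 in all 15 HCT116 libraries.

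CHAC1 (ENSG00000128965, chr15:40952962-40956519, plus strand) encodes a gamma-glutamylcyclotransferase that breaks down glutathione, and it showed the largest fall. In HCT116 cells it measured 12.3, 12.47 and 16.5 RPKM untreated and 0.943, 1.09 and 0.721 after 6 h with 10 μM Omomyc. The untreated mean was 14.98 times the treated mean, and the groups were far apart. The log2 fold change was -3.33 ± 0.16 (adjusted p = 0.000145). After 6 h with 2 μM it measured 1.38, 2.37 and 6.82 RPKM, and the third replicate was closer to the untreated libraries than the other two. The log2 fold change was -2.05 ± 0.40 with that replicate (adjusted p = 0.0026) and -2.61 ± 0.20 without it. At 24 h CHAC1 measured 3.13, 2.52 and 3.005 RPKM with 2 μM and 2.23, 2.81 and 2.57 with 10 μM, well below untreated in every library. The 24 h changes were -2.07 ± 0.12 (adjusted p = 4.6e-05) and -2.23 ± 0.12 (adjusted p = 7.2e-06). With 10 μM the level rose from 6 to 24 h by 1.10 ± 0.17 (adjusted p = 0.011), a call lost without replicate 2 or 3 of the 24 h group (1.04 and 1.09). In Ramos cells CHAC1 measured 10.5, 12.2 and 10.5 RPKM untreated and 8.82, 7.52 and 8.16 after 6 h with 2.5 μM. That fall, -0.42 ± 0.09 (adjusted p = 0.0094), was small beside the one in HCT116 cells. With 0.5 μM it measured 11.1, 11.6 and 11.8 RPKM at 6 h and 12.4, 12.9 and 13.5 at 24 h, and with 2.5 μM at 24 h 10.6, 8.87 and 8.68, and no such group passed the test.

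TRIB3 (ENSG00000101255, chr20:362835-397559, plus strand) encodes a pseudokinase that is induced by ATF4 and CHOP and binds AKT. Untreated and treated HCT116 cells gave 29.7, 31.0 and 33.8 RPKM untreated, 16.8, 18.5 and 24.5 after 6 h with 2 μM, and 17.5, 17.4 and 14.2 after 6 h with 10 μM. After 24 h it measured 15.4, 17.0 and 17.1 RPKM with 2 μM and 17.8, 18.4 and 17.0 with 10 μM. All treated HCT116 libraries were below all untreated ones at both times. The log2 fold changes ranged from -0.66 ± 0.12 (2 μM at 6 h, adjusted p = 0.0023, or -0.82 ± 0.08 without replicate 3) to -0.93 ± 0.12 (10 μM at 6 h, adjusted p = 0.002). At 24 h they were -0.91 ± 0.07 (2 μM, adjusted p = 0.00015) and -0.81 ± 0.06 (10 μM, adjusted p = 3.5e-05). In Ramos cells TRIB3 lay between 33.8 and 38.6 RPKM in all 15 libraries and did not pass the test in any Omomyc group (adjusted p between 0.59 and 0.91).

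DDIT4 (ENSG00000168209, chr10:72273920-72276036, plus strand), which encodes REDD1, an inhibitor of mTORC1 signaling, changed between 6 and 24 h at every dose in both lines. In HCT116 cells it measured 70.6, 83.3 and 88.6 RPKM untreated, 16.6, 19.5 and 36.9 after 6 h with 2 μM, and 14.9, 11.4 and 10.6 after 6 h with 10 μM. The groups did not overlap, and the untreated mean was 3.32 times and 6.57 times the treated means. The log2 fold changes were -1.79 ± 0.24 (adjusted p = 0.0004, or -2.13 ± 0.11 without replicate 3) and -2.68 ± 0.15 (adjusted p = 0.00016). At 24 h it measured 74.7, 59.8 and 57.3 RPKM with 2 μM, reaching into the untreated range, and 53.9, 62.0 and 52.9 with 10 μM, below it. From 6 to 24 h it rose by 1.45 ± 0.25 (2 μM, adjusted p = 0.0024, or 1.79 ± 0.13 without replicate 3 at 6 h) and by 2.16 ± 0.15 (10 μM, adjusted p = 0.00025) on the log2 scale. Against untreated cells the 24 h changes were -0.34 ± 0.11 (2 μM, adjusted p = 0.045) and -0.52 ± 0.09 (10 μM, adjusted p = 0.002). The former was lost without replicate 2 or 3 of either group (-0.32 to -0.27), and the latter when all 5 HCT116 groups were fitted together. In Ramos cells DDIT4 measured 33.0, 34.6 and 29.2 RPKM untreated, 26.6, 24.7 and 28.0 after 6 h with 0.5 μM, and 20.04, 20.5 and 20.4 after 6 h with 2.5 μM. After 24 h it measured 42.2, 44.2 and 42.5 RPKM with 0.5 μM, above the untreated libraries, and 30.0, 25.7 and 26.9 with 2.5 μM. It fell at 6 h by 0.28 ± 0.07 (0.5 μM, adjusted p = 0.027) and by 0.65 ± 0.07 (2.5 μM, adjusted p = 0.00025) on the log2 scale. The 0.5 μM call was lost without treated replicate 1 or 2 or untreated replicate 1 or 2 (-0.28 to -0.23), and the 24 h value with 0.5 μM did not pass the test (adjusted p = 0.31).

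SESN2 (ENSG00000130766, chr1:28259527-28282491, plus strand) encodes sestrin 2, a leucine-sensing brake on mTORC1. HCT116 cells gave 9.15, 8.89 and 10.1 RPKM untreated, 4.06, 4.74 and 8.49 after 6 h with 2 μM, and 3.69, 4.64 and 2.95 after 6 h with 10 μM. The 24 h groups measured 5.77, 6.15 and 5.85 RPKM with 2 μM and 5.12, 5.71 and 5.69 with 10 μM. No treated library reached the untreated range, and replicate 3 of the 2 μM group at 6 h came nearest to it. The log2 fold changes at 6 h were -0.72 ± 0.21 (2 μM, adjusted p = 0.02) and -1.23 ± 0.16 (10 μM, adjusted p = 0.0023). The 2 μM value was -1.02 ± 0.11 without replicate 3, and its call was lost without treated replicate 1 or 2 or untreated replicate 3 (-0.67 to -0.53). At 24 h the changes were -0.62 ± 0.08 (2 μM, adjusted p = 0.00095) and -0.72 ± 0.08 (10 μM, adjusted p = 0.00024). In Ramos cells SESN2 measured 21.9, 20.5 and 21.3 RPKM untreated and 15.9, 15.7 and 15.7 after 6 h with 2.5 μM, a tight group below it (-0.42 ± 0.05, adjusted p = 0.00078). At 24 h it lay between 22.4 and 22.9 RPKM with 0.5 μM, above every untreated library, and between 18.5 and 19.5 with 2.5 μM, below them. With 0.5 μM at 6 h it lay between 19.5 and 20.5 RPKM, reaching the untreated range. These other Ramos groups did not pass the test.

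VLDLR (ENSG00000147852, chr9:2621834-2660053, plus strand) encodes the very low density lipoprotein receptor, a lipid uptake receptor induced in ER stress. It was listed at 0 in all 15 HCT116 libraries and was not tested there. In Ramos cells it lay between 0.391 and 0.832 RPKM, with 0.452, 0.614 and 0.665 in untreated cells. The groups overlapped at this low level, and no Omomyc group passed the test (adjusted p between 0.52 and 0.99).

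Between 6 and 24 h the members went different ways. In HCT116 cells 3 of 9 genes changed with 2 μM (1 rose, 2 fell), where 40.8% of 14775 genes did (30.9% rose, 9.85% fell). With 10 μM 4 of 9 changed (2 rose, 2 fell), where 7.86% of 14920 genes did (5.80% rose, 2.06% fell). ATF3 and ATF5 came down and DDIT4 came back up at both doses, with ATF5 at -1.05 ± 0.11 (2 μM, adjusted p = 0.00042) and -0.73 ± 0.18 (10 μM, adjusted p = 0.05). The ATF5 call at 10 μM was lost without any of the 24 h libraries or without replicate 1 or 2 at 6 h (-0.84 to -0.61). ATF4, CEBPB, DDIT3 and TRIB3 did not pass the test of time at either dose. Without replicate 3 of the 2 μM group at 6 h, SESN2 also rose with time (0.39 ± 0.11), which made 4 genes. In Ramos cells 3 of 10 genes changed with 0.5 μM (25.4% of 13611) and 4 of 9 with 2.5 μM (23.0% of 13564), where VLDLR was too low to test. ATF4 rose by 0.28 ± 0.04 and 0.32 ± 0.03, DDIT4 by 0.69 ± 0.06 and 0.43 ± 0.06, and SESN2 by 0.18 ± 0.05 and 0.25 ± 0.05 on the log2 scale at the lower and higher dose. SESN2 at 0.5 μM and ATF5 at 2.5 μM (-0.20 ± 0.06) were the weaker calls. The former was lost without any library but replicate 3 at 6 h (0.17 to 0.19), and the latter without any of the 6 libraries (-0.22 to -0.17).

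Between doses, 0 of 9 genes differed in HCT116 cells at 6 h, where 0 of 14601 genes did, and 0 of 9 at 24 h, where 0.180% of 15039 genes did (0.140% higher, 0.0399% lower with 10 μM). At an unadjusted p under 0.05, limma gave 4 and 1 of these 9 genes, and 1242 and 1739 of all genes. At 6 h the libraries of the doses did not overlap for 5 of the 9 genes (18.2% of all genes), which were all lower with 10 than with 2 μM and did not pass the test. The log2 differences were -1.27 ± 0.43 for CHAC1 (adjusted p = 0.56), -0.88 ± 0.28 for DDIT4 (0.53), -0.61 ± 0.11 for ATF3 (0.42), -0.49 ± 0.13 for DDIT3 (0.44) and -0.23 ± 0.13 for ATF4 (0.62). At 24 h 2 of 9 did not overlap (18.1% of all genes), ATF3 at -0.54 ± 0.11 (adjusted p = 0.15) and SESN2 at -0.10 ± 0.09 (0.71), both lower with 10 μM. Without replicate 3 of the 10 μM group at 6 h, ATF3 passed (-0.64 ± 0.09, adjusted p = 0.044). In Ramos cells, where the doses were 0.5 and 2.5 μM, 3 of 10 genes were lower with 2.5 μM at 6 h. There 0.429% of 13511 genes differed (0.185% higher, 0.244% lower). At 24 h 5 of 10 were lower, where 4.25% of 13629 genes differed (2.39% higher, 1.86% lower). At 6 h these were CHAC1 (-0.47 ± 0.07), DDIT4 (-0.37 ± 0.05) and SESN2 (-0.33 ± 0.05), with adjusted p between 0.027 and 0.028, and all 3 calls were lost without any of the 6 libraries (-0.53 to -0.42, -0.42 to -0.33 and -0.34 to -0.30). At 24 h they were DDIT4 (-0.64 ± 0.06), CHAC1 (-0.45 ± 0.08), ATF5 (-0.37 ± 0.06), DDIT3 (-0.26 ± 0.06) and SESN2 (-0.25 ± 0.05). Of these, DDIT4 passed without each library in turn (adjusted p = 0.0014 with all), while the others did not. ATF5 was lost without replicate 2 or 3 at 2.5 μM (-0.37 to -0.36), and CHAC1 without these or replicate 2 at 0.5 μM (-0.45 to -0.40). DDIT3 was lost without any library (-0.31 to -0.23), and SESN2 without any but replicate 3 at 0.5 μM (-0.28 to -0.24).

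Before treatment the lines differed in 6 of the 9 genes tested, where 84.6% of 15647 genes differed (45.7% higher and 39.0% lower in HCT116 cells). ATF3 was higher in HCT116 than in Ramos cells by 1.71 ± 0.15 on the log2 scale, DDIT4 by 1.31 ± 0.10, CEBPB by 1.30 ± 0.21 and ATF4 by 0.27 ± 0.06. ATF5 (-1.86 ± 0.09) and SESN2 (-1.14 ± 0.06) were lower in HCT116 cells, with limma adjusted p of at most 0.0038 for all 6. CHAC1 (0.30 ± 0.12), DDIT3 (-0.17 ± 0.07) and TRIB3 (-0.16 ± 0.06) did not pass the test (adjusted p between 0.051 and 0.058), which does not show that their levels were equal. With equal sums of RPKM, which moved the median of all genes from 0.09 to 0.62, ATF4 was at 0.85 and SESN2 at -0.58, and both passed the test. CHAC1 was then at 0.85, and DDIT3 and TRIB3 turned from -0.17 and -0.16 to 0.39 and 0.41. The other genes tested kept their direction. Line and tissue of origin cannot be told apart here.

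Whether the lines responded differently was tested as the difference of their log2 fold changes, with 2 μM in HCT116 cells set beside 2.5 μM in Ramos cells, doses that are close but not equal. HCT116 cells got Omomyc with ProteoJuice, and how Ramos cells were treated was not given. Line and way of delivery therefore cannot be told apart in these differences. At 6 h, 7 of 9 genes differed (40.6% of 15562 genes did), and at 24 h 6 of 9 differed (16.3% of 15714). At 6 h the change was higher in HCT116 cells for 3 of the 7 and lower for 4, against 2 and 5 without replicate 3 of the 2 μM group. ATF3 differed by 3.75 ± 0.18 and ATF5 by 1.38 ± 0.12 at 6 h, both with the higher change, not the higher level, taken as the measure in HCT116 cells. The change of CHAC1 was lower in HCT116 than in Ramos cells by 1.64 ± 0.50 at 6 h and by 1.84 ± 0.17 at 24 h on the log2 scale (adjusted p = 0.0225 and 0.00022). TRIB3 differed in the same direction at both times (-0.62 ± 0.15 and -0.97 ± 0.09). ATF4 and SESN2 differed at 24 h (-0.58 ± 0.07 and -0.46 ± 0.08) and did not pass the test at 6 h. DDIT4 differed at 6 h (-1.14 ± 0.31) and did not pass the test at 24 h (adjusted p = 0.66). The 6 h CHAC1 call was lost without replicate 2 of the treated group or replicate 3 of the untreated group in HCT116 cells (-1.52 and -1.51). With 10 μM in HCT116 cells against 2.5 μM in Ramos cells at 24 h, doses that differ, 6 of 9 genes differed (22.5% of 15674).

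**Figure D3:**
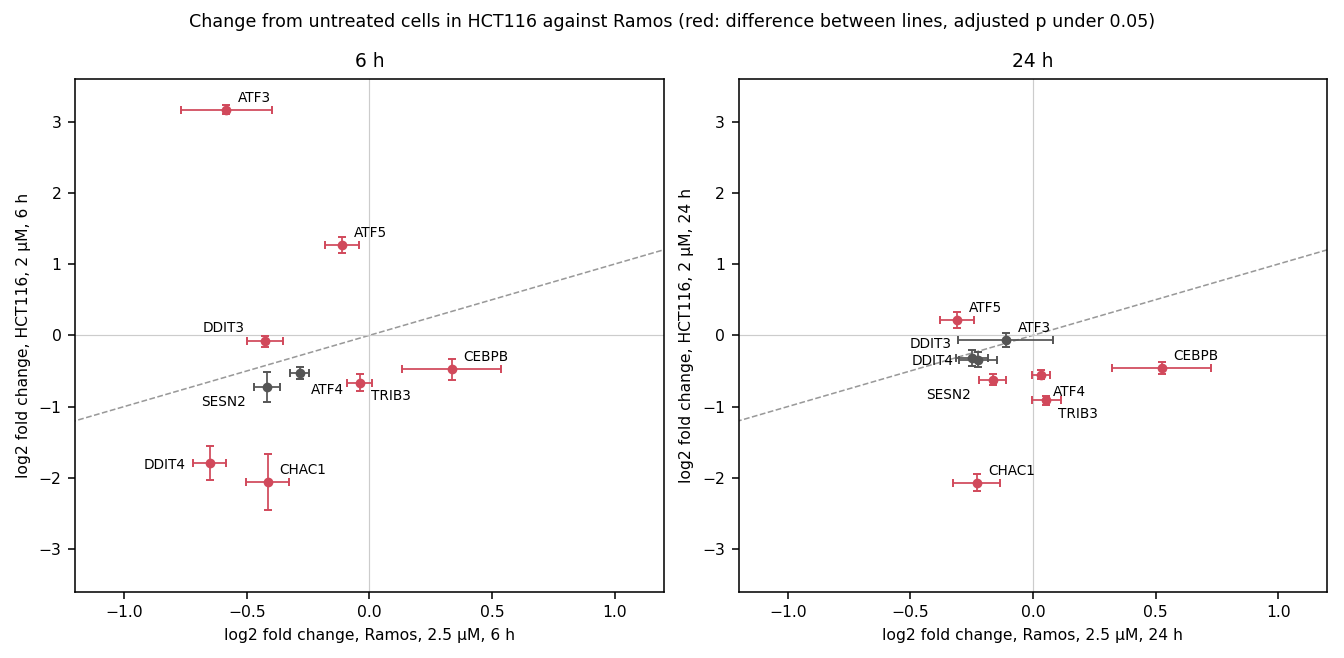
Log2 fold change against untreated cells in HCT116 cells (vertical, 2 μM Omomyc) and in Ramos cells (horizontal, 2.5 μM Omomyc) at 6 h (left) and 24 h (right), with SE bars and the dashed line of equal change. Axis ranges differ, and VLDLR is left out. Red points are the 7 genes at 6 h and the 6 genes at 24 h whose changes differ between the lines (limma adjusted p under 0.05), with ATF3 farthest above the line at 6 h and CHAC1 far below it at both times.

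The patterns of the genes across libraries were compared within each line over 15 libraries, as a description, since libraries of a group share their treatment. In HCT116 cells CHAC1 ran closest to SESN2 among 9007 genes (Pearson r = 0.964), followed by RABEP1 and PSAT1 (0.951 and 0.950), PSAT1 being a serine synthesis gene. In Ramos cells SESN2 was again among its 3 closest (0.883), after BTN2A2 and IQGAP3 (0.892 and 0.888). RABEP1 and PSAT1 stood at 0.13 and 0.54 in Ramos cells, and BTN2A2 and IQGAP3 at 0.30 and -0.03 in HCT116 cells. TRIB3 ran closest to PSAT1 in HCT116 cells (0.953), then CAMK2D and RPL3, and to ABI1, TSPYL4 and PDSS2 in Ramos cells (0.869 to 0.821). The former stood at 0.48, 0.30 and 0.41 in Ramos cells, and the latter at 0.50, 0.62 and 0.05 in HCT116 cells. DDIT4 ran closest to MAPK3, FBXL20 and IFT74 in HCT116 cells (0.982 to 0.968) and to PHLDA1, HLA-E and DUSP2 in Ramos cells (0.939 to 0.937). In the other line the former stood at -0.24, 0.57 and 0.20, and the latter at -0.32, 0.31 and -0.82. For DDIT3 the closest were SIAH2, EEF1A1P5 and TGIF2 in HCT116 cells (0.896 to 0.820) and SESN2, EGR1 and BCAR3 in Ramos cells (0.886 to 0.831). In the other line these stood at 0.56, 0.26 and -0.53, and at 0.67, 0.17 and -0.53. Among the members, ATF4 followed CHAC1 and TRIB3 in HCT116 cells (0.925 and 0.904), while ATF3 ran against DDIT4 (-0.848). The same pairs stood at 0.354, 0.518 and 0.735 in Ramos cells, so ATF3 ran with DDIT4 there.

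The neighboring genes of the pathway were taken from lists chosen with earlier results known, so their counts are a description. Shares of all genes printed beside list counts are those without rescaling. Of 36 other known ATF4 target genes, 32 were expressed enough to test. In HCT116 cells 24 fell and 0 rose in both 2 μM groups and with 10 μM at 6 h, and 22 fell and 1 rose with 10 μM at 24 h, while 10.8% to 31.8% of all genes fell in the 4 comparisons. Their median log2 fold change was -0.48 and -0.68 at 6 h and -0.38 and -0.38 at 24 h (2 and 10 μM), beside -0.12, -0.11, 0.04 and 0.02 for all genes, and falls outnumbered rises under each scaling tried. ASNS, asparagine synthetase, fell from 127 ± 12.1 RPKM (SD, n = 3) to 26.0 ± 2.81 with 10 μM at 6 h (log2 fold change -2.27 ± 0.12) and to 42.5 ± 1.10 at 24 h (-1.57 ± 0.07). PCK2, a mitochondrial gluconeogenic enzyme, fell by 1.64 ± 0.13 with 2 μM at 6 h, and PHGDH, the first enzyme of serine synthesis, by 1.83 ± 0.18 with 10 μM at 6 h on the log2 scale. SLC3A2, an amino acid transporter chain, was the exception, higher by 0.23 ± 0.05 with 10 μM at 24 h. In Ramos cells 17 fell and 3 rose with 0.5 μM at 6 h and 19 fell and 2 rose with 2.5 μM at 6 h, where 9.73% and 10.7% of all genes fell. With equal sums these counts shrank to 4 falls and 2 rises, and to 9 falls and 7 rises. SLC38A2 and SLC7A11, transporters of neutral amino acids and of cystine, fell by 1.10 ± 0.09 and 0.89 ± 0.09 with 2.5 μM, while CBS, of transsulfuration, rose by 0.28 ± 0.05 on the log2 scale. With 2.5 μM at 24 h 2 fell and 1 rose, where 1.31% of all genes fell and 3.30% rose. With equal sums 2 fell and 12 rose (median 0.19 in place of -0.01). That median lay below the median of all genes under the same scaling, given above, so these rises do not set the targets apart.

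Upstream, the 18 genes of the eIF2 kinases and the eIF2 cycle included falls and rises in every HCT116 group. In HCT116 cells 9 fell and 2 rose with 2 μM at 6 h, 5 fell and 1 rose with 10 μM at 6 h, and at 24 h 5 fell and 1 rose with 2 μM and 6 fell and 4 rose with 10 μM. Of all genes 31.8%, 21.2%, 10.8% and 15.7% fell in these comparisons and 15.5%, 8.84%, 16.6% and 19.5% rose. With equal sums 12 fell and 1 rose (2 μM) and 10 fell and 1 rose (10 μM) at 6 h, and 5 and 7 fell and 0 rose at 24 h. With median-ratio scaling the 2 μM count at 6 h turned to 2 falls and 6 rises. PPP1R15A (GADD34), the stress-induced phosphatase subunit that reverses eIF2 phosphorylation, went with ATF3: it rose from 18.9 ± 0.70 RPKM to 51.5 ± 2.33 with 2 μM (1.42 ± 0.07) and to 44.6 ± 8.41 with 10 μM (1.195 ± 0.15) at 6 h, and fell to 13.6 ± 0.47 with 10 μM at 24 h (-0.46 ± 0.06). EIF2S3, a subunit of eIF2, fell in all 4 HCT116 groups, by 0.33 to 0.52 on the log2 scale. In Ramos cells 1 of 17 genes fell in each 6 h group, EIF2AK3 with 0.5 μM (-0.26 ± 0.07) and EIF2AK4 with 2.5 μM (-0.28 ± 0.08), where 9.73% and 10.7% of all genes fell, and with equal sums these counts turned to 1 and 4 rises with no fall.

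The 16 genes of the XBP1 and ATF6 arm, the branch of the unfolded protein response that raises ER chaperones, leaned the other way. In HCT116 cells 6 rose and 2 fell with 2 μM and 4 rose and 1 fell with 10 μM at 6 h, and 8 rose and 2 fell with 2 μM and 11 rose and 1 fell with 10 μM at 24 h. Of all genes 15.5%, 8.84%, 16.6% and 19.5% rose in these comparisons. The 6 h counts in HCT116 cells depend on the scaling, since with equal sums 3 rose and 5 fell with 2 μM, 2 fell with 10 μM, and both medians were -0.20 in place of 0.13 and 0.29. Both still lay above the medians of all genes under that scaling, given above, which had shifted down as well. The 24 h counts kept their direction, with 5 rises and 2 falls (2 μM) and 7 rises and 1 fall (10 μM) with equal sums. CALR, the ER chaperone calreticulin, rose from 207 ± 19.4 to 431 ± 14.4 RPKM with 10 μM at 24 h (log2 fold change 1.06 ± 0.07). HERPUD1, of ER-associated degradation and also known as a target of ATF4, fell there (-0.37 ± 0.06). In Ramos cells 7 rose and 1 fell with 0.5 μM and 8 rose and 1 fell with 2.5 μM at 6 h, where 13.8% and 17.3% of all genes rose, with SDF2L1 and CRELD2 at 0.82 ± 0.05 and 0.94 ± 0.07 with 2.5 μM.

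**Figure D4:**
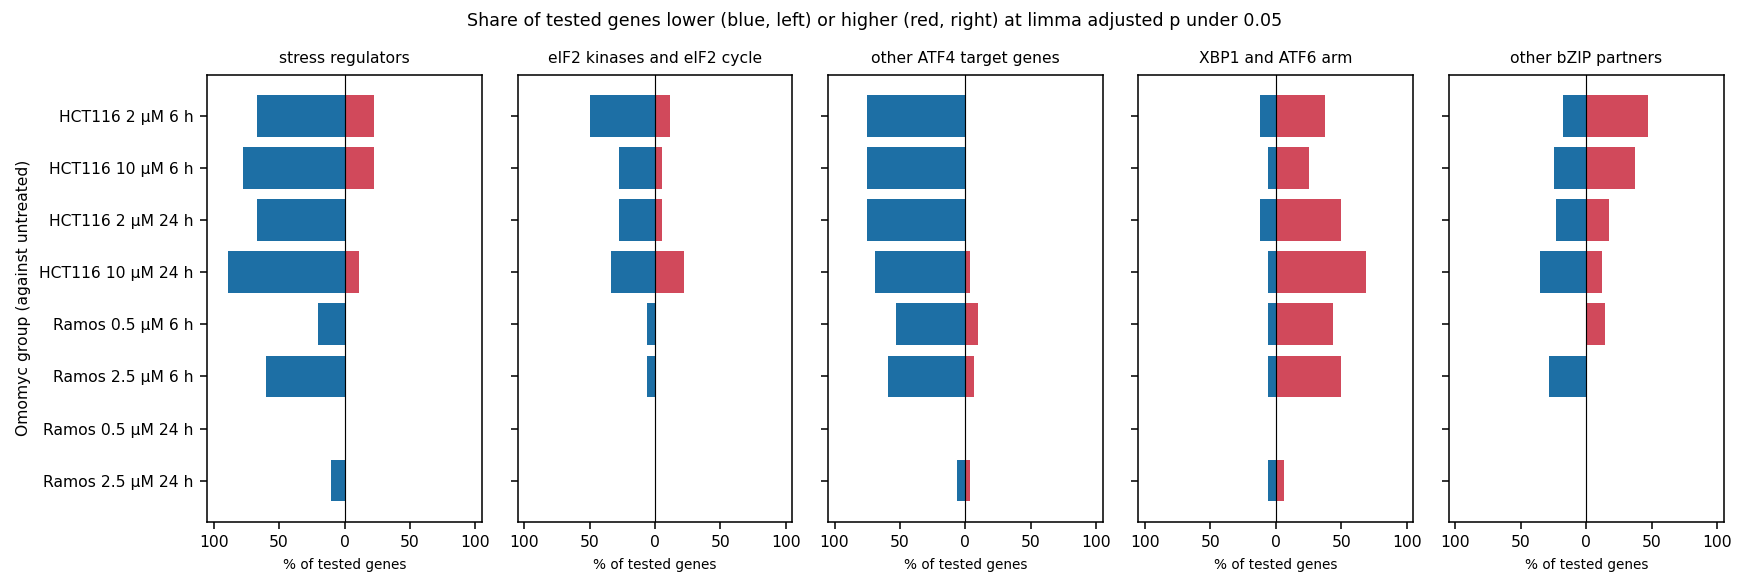
Share of the tested genes that fell (blue, to the left) or rose (red, to the right) at a limma adjusted p under 0.05 in each Omomyc group against untreated cells (rows), for the stress regulators and 4 related gene lists (panels). In HCT116 cells the stress regulators and the 32 other ATF4 target genes tested lie mainly to the left, and the 16 genes of the XBP1 and ATF6 arm mainly to the right. With equal sums of RPKM the latter turned left at 6 h, where the median of all genes moved down further than theirs.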

How the data were processed

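RNA-Seq libraries of 30 samples were grouped by the labels. The values used are RPKM as the authors deposited them, for 57992 genes in 1 column per library, and a tool named in the submitters' processing notes is RSEM. The aligner, build, annotation, strand setting and filters behind the table were not given in the sources used here. The values keep no read depth, so no count model, detection limit or depth-based interval was used, and precision rests on the 3 replicates (r of log2 values 0.973 to 0.996 over 30 pairs, 0 identical). The labels give the lower HCT116 dose as 2 μM, used here, and the paper's methods give 2.5 μM. A label tag reads 4 h for libraries titled 24 h, and the titles were followed.

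Symbols and positions came from GENCODE release 29 (57388 genes matched). Log2(RPKM + 0.5) was fitted with limma 3.58.1 in R 4.3.3 (lmFit, eBayes with trend) in the libraries of each comparison, keeping genes whose mean reached 0.5 RPKM, with Benjamini-Hochberg adjustment over all of them and a threshold of 0.05. Of 20 comparisons, 8 were with untreated cells, 4 between times, 4 between doses, 1 between untreated lines and 3 tests of interaction. An exact permutation test of 3 libraries against 3 cannot give a p below 0.1. Replicate numbers were not used in the fits. The fits were tested on simulated data.

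The members and lists were chosen with earlier results of these data known. Named were all 10 members, from each list up to 2 of the largest rises and falls past the threshold in each comparison with untreated cells, and for CHAC1, DDIT3, DDIT4 and TRIB3 the 3 genes most correlated with them in each line, at a mean RPKM of at least 2. Genes overlapping a member were named besides. Other settings tried were pseudocounts of 0.1 and 1, a filter at a mean of 2 or none, scaling by median ratio, quantiles or equal sums, eBayes without trend, a block for the replicate number, 1 fit over the 5 groups of each line, and leaving out each library.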

Additional observations from a re-analysis of the deposited data

Results flagged for a closer look

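The change from untreated cells differed between HCT116 and Ramos cells, by the limma test of the difference itself, in 19 results. Each value is on the log2 scale, HCT116 change minus Ramos change, and the doses compared are unequal (2 or 10 against 2.5 μM). Line and way of delivery cannot be told apart in them. With 2 μM in HCT116 cells at 6 h the differences were 3.75 for ATF3, 1.38 for ATF5, 0.34 for DDIT3, -0.62 for TRIB3, -0.81 for CEBPB, -1.14 for DDIT4 and -1.64 for CHAC1. ATF3 and ATF5 rose in HCT116 cells only, ATF3 fell in Ramos cells (-0.58), and for DDIT3 the values were -0.43 in Ramos cells and -0.08 in HCT116 cells. With 2 μM at 24 h they were 0.53 for ATF5, -0.46 for SESN2, -0.58 for ATF4, -0.97 for TRIB3, -0.98 for CEBPB and -1.84 for CHAC1. With 10 μM at 24 h they were 0.67 for ATF5, -0.55 for SESN2, -0.64 for ATF4, -0.87 for TRIB3, -1.07 for CEBPB and -2.00 for CHAC1.

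CEBPB varied most between the untreated Ramos libraries (8.02, 4.84 and 4.26 RPKM). Its 6 h difference was lost without replicate 1 or 2 with Omomyc or any untreated replicate in HCT116 cells, or without replicate 1 or 2 with Omomyc or untreated replicate 2 or 3 in Ramos cells (-0.87 to -0.63). Its 24 h difference with 2 μM was lost without replicate 3 with Omomyc or untreated replicate 2 or 3 in HCT116 cells, or without replicate 2 of either group in Ramos cells (-0.98 to -0.88). The DDIT3 difference was lost without replicate 3 with Omomyc or untreated replicate 1 or 2 in HCT116 cells, or without replicate 1 or 3 of either group in Ramos cells (0.29 to 0.33). With equal sums of RPKM, the ATF5 differences at 24 h were 0.19 (2 μM) and 0.31 (10 μM) and both calls were lost (adjusted p = 0.30 and 0.12). The 6 h CHAC1 difference was lost without replicate 2 with Omomyc or untreated replicate 3 in HCT116 cells (-1.52 and -1.51).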

How the results depend on the processing

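The 88 called member results were recomputed under each alternative: 1307 recomputed values kept direction and call, 187 kept the direction and lost the call, and 1 reversed, since the DDIT3 difference between lines at 6 h was -0.13 with equal sums of RPKM against 0.34. Of the 20 counts of members called, in 196 alternatives other than leaving out a library 173 stayed within 1.5 times. The others follow, and their causes were not tested. With all 5 groups of a line in 1 fit, the count was 3 in place of 6 for HCT116 cells with 2 μM at 24 h, 4 in place of 1 for Ramos cells with 2.5 μM at 24 h, and 1 in place of 0 between HCT116 doses at 6 h. Without the filter it was 1 in place of 2 for Ramos cells with 0.5 μM at 6 h, 0 in place of 1 with 2.5 μM at 24 h, 2 in place of 4 for time in HCT116 cells with 10 μM, 0 in place of 3 and 2 in place of 5 between Ramos doses at 6 and 24 h, and 4 in place of 7 for the difference between lines at 6 h. With equal sums it was 1 (0.5 μM at 6 h) and 3 (2.5 μM at 24 h) in Ramos cells, 1 between HCT116 doses at 24 h, and 0 and 3 between Ramos doses. Without the trend it was 1, 0, 0 and 1 for the same 4 Ramos comparisons. With median-ratio scaling it was 5 in place of 3 for time in HCT116 cells with 2 μM.

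No pairing by replicate number was seen by the rule used: in no comparison was the correlation of deviations over 0.1 in every same-numbered pair (-0.303 to 0.184). Differently numbered pairs were not compared, so the absence of pairing was not shown. In a fit blocked on replicate number the count was 1 for Ramos cells with 0.5 μM at 6 h, 0 with 2.5 μM at 24 h, and 0 and 2 between Ramos doses at 6 and 24 h. The block lost 14 member calls and gained 5.

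Leaving out each library in turn gave, against untreated cells, 6 to 8 (2 μM at 6 h), 5 to 6 (2 μM at 24 h), 8 to 9 and 8 to 9 (10 μM) called members in HCT116 cells, and 1 to 2, 0 to 0, 5 to 7 and 0 to 1 in Ramos cells (0.5 μM at 6 and 24 h, then 2.5 μM). Time gave 3 to 4 and 2 to 4 in HCT116 cells and 2 to 3 and 3 to 4 in Ramos cells, dose 0 to 1 and 0 to 0 in HCT116 cells and 0 to 0 and 1 to 4 in Ramos cells. Untreated lines gave 6 to 9, and the differences between lines 5 to 7, 5 to 6 and 6 to 7. Read depth is unknown, and low levels such as VLDLR in Ramos cells or ATF3 there rest on few reads that cannot be counted here. The list counts under other scalings were added after seeing the data.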

Other observations

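Other bZIP genes whose proteins pair with ATF4, C/EBP proteins or CHOP also moved in HCT116 cells. At 6 h 8 of 17 rose and 3 fell with 2 μM Omomyc (15.5% of all genes rose and 31.8% fell), and 6 of 16 rose and 4 fell with 10 μM (8.84% and 21.2%). At 24 h 3 of 17 rose and 4 fell with 2 μM (16.6% and 10.8%), and 2 of 17 rose and 6 fell with 10 μM (19.5% and 15.7%). With equal sums of RPKM the rises and falls were 7 and 4, and 3 and 4, at 6 h, and 1 and 6, and 0 and 8, at 24 h. JUN, a core AP-1 subunit, rose from 7.77 ± 0.48 RPKM (SD, n = 3) to 55.4 ± 2.31 with 2 μM and to 46.4 ± 9.52 with 10 μM at 6 h (log2 fold changes 2.76 ± 0.07 and 2.48 ± 0.16). FOSL1, another AP-1 subunit, rose there by 2.34 ± 0.12 and 2.17 ± 0.13, while ATF2 (-0.79 ± 0.09 and -0.85 ± 0.14) and JDP2, a repressor of AP-1 (-0.86 ± 0.13 and -1.04 ± 0.14), fell. At 24 h FOS fell from 107 ± 8.46 RPKM to 28.3 ± 8.31 with 2 μM (-1.94 ± 0.18) and to 8.48 ± 0.76 with 10 μM (-3.58 ± 0.08). JUNB fell by 0.92 ± 0.07 on the log2 scale with 10 μM at 24 h. In Ramos cells the changes were smaller, with BATF3 (-0.66 ± 0.15) and BATF (-0.66 ± 0.17) the largest falls with 2.5 μM at 6 h.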
